A study of Mus musculus with 44 samples.

Results

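ATP-binding cassette (ABC) transporter genes were followed across the RNA, open chromatin and single-cell measurements of a mouse medulloblastoma series. Members were all genes whose symbol starts with Abca, Abcb, Abcc, Abcd, Abce, Abcf or Abcg and a digit, pseudogene names left out, together with the open chromatin regions within 1 kb of the start of such a gene. The 4 expression tables held 45 such genes among 23413 genes in all, and 28 of them were in every table. They were 40 of 16078 genes in the tumors, 32 of 15926 in the treated lines, 37 of 16577 in the fGTS2 cells and 37 of 17546 in the GTML cells. Of the regions, 35 of 88981 in the table of the lines and GTS sources and 32 of 88258 in the table of the GFP fractions were members. All 32 genes of the treated-line table passed the filter on low values, as did 39 of 40 in the tumors, where Abcc6 did not. Of the genes in the tumors, Abcb1a, Abca13, Abca6, Abca8a, Abcc3, Abcc6, Abcc9 and Abcg3 were not in the treated-line table and are not analysed there.

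ABC proteins couple ATP hydrolysis to the movement of a substrate across a membrane. Efflux members such as P-glycoprotein and the breast cancer resistance protein expel drugs from tumor cells and from the endothelium of the blood-brain barrier, while A- and G-class members move cholesterol and phospholipids, and others serve mitochondria, peroxisomes and lysosomes. The E and F classes have the ATP-binding cassettes but no membrane domain and act on the ribosome. MYC proteins, which drive these tumors, are transcription factors that bind the E-box CACGTG.

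Samples were of 5 kinds. RNA came from 6 GTS and 8 GTML medulloblastomas without treatment. In GTML mice the promoter of Glt1, a glutamate transporter gene of glia, drives the tetracycline transactivator that turns on MYCN. In GTS mice the Sox9 promoter is used in turning on MYCN, and the activator it drives is not described here. RNA was also taken from preGTS1 and GTML3, each under DOX (doxycycline, which silences the transgene) or DMSO (the vehicle) with 3 samples per condition; both are handled here as lines, each of 1 source, although the labels call every sample tumor. Open chromatin was read by ATAC-seq in duplicates of the GTS sources GTS1 and GTS2, of preGTS1 and GTML3 under DOX and DMSO, and of GFP and nonGFP fractions of GTML tumor. Single cells came from 1 library of a GTS tumor labelled fGTS2 and 1 of a GTML tumor labelled GTML_SOX9-GFP. The dose and duration of DOX are not given in the sources used here. Nothing says that the replicates of a line were separate cultures, so the p-values rest on a spread that may be technical.

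The treated-line libraries held 10.861 to 24.672 M reads. Mycn checked the DOX labels: its reads numbered 352, 436 and 521 under DOX and 8716, 5663 and 6898 under DMSO in GTML3, and 844, 1131 and 828 under DOX and 32677, 30170 and 39616 under DMSO in preGTS1. By limma, Mycn fell by 3.60 (log2, SE 0.15, adjusted p = 6.72e-11) in GTML3 and by 4.86 (SE 0.15, adjusted p = 2.22e-12) in preGTS1. Most genes moved, so counts of members are set beside the share of all genes called. In GTML3 under DOX 65.8% of all 15926 genes passed an adjusted p of 0.05, 34.5% higher and 31.4% lower, and in preGTS1 68.3% passed, 34.5% higher and 33.7% lower. In bulk RNA, fewer cells of a type and less RNA per cell cannot be told apart.

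ABC genes moved in both directions under DOX. In GTML3 16 of 32 rose, 10 fell and 6 did not pass the test; in preGTS1 13 rose, 9 fell and 10 did not pass. The share called was 81.2% in GTML3 and 68.8% in preGTS1, above the background in GTML3 and near it in preGTS1. Their median log2 fold change was 0.40 in GTML3 and 0.23 in preGTS1, against 0.048 and 0.041 over all genes; without Abcc8, which has no reads in GTML3, the ABC medians were 0.62 and 0.26. In both lines 13 genes rose (40.6%), among them 8 of the sterol and phospholipid transporters, beside 22.6% of all genes, and 8 fell (25%), among them Abcb1b, Abcg2, Abce1, Abcf1 and Abcf2, beside 22.9%. No ABC gene was called in opposite directions, beside 5.55% of all genes. The 2 lines share no library, but both responses come from 1 fit with a shared spread.

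**Figure D1:**
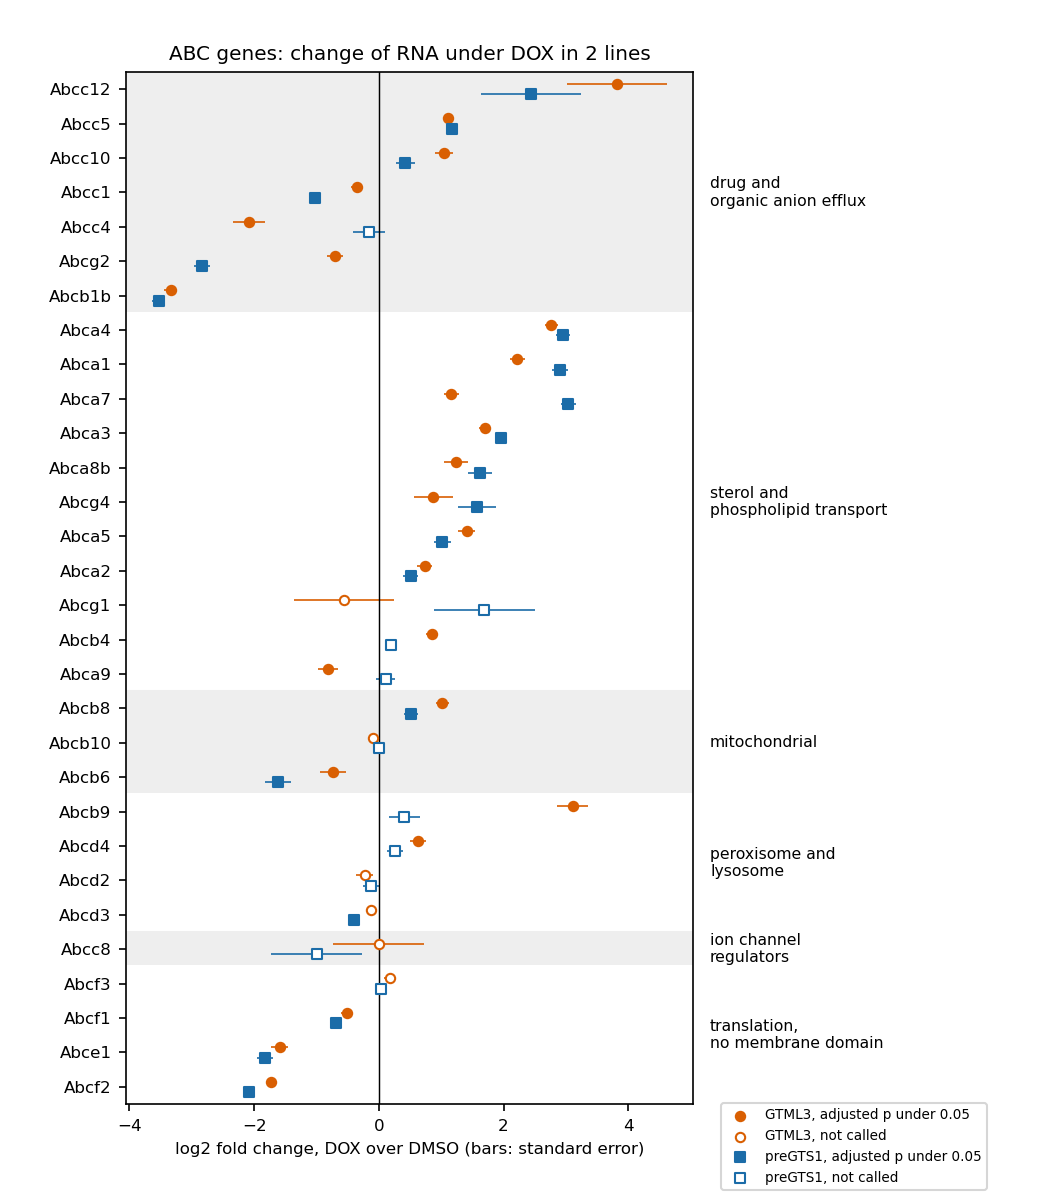
Change of 30 of the 32 ABC genes under DOX relative to DMSO (log2 fold change with its standard error), grouped by role, in GTML3 (circles) and preGTS1 (squares); filled symbols passed an adjusted p of 0.05 by limma. Sterol and phospholipid transporters lie mostly right of 0, Abcb1b lies below -3 in both lines, and Abce1, Abcf1 and Abcf2 lie left of 0.

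Promoter sequence was read for 4 members that the DOX results turn on, as the 250 bases before the start, from RefSeq on GRCm38.p6, with any E-box in capitals. They are Abca1 at chr4:53159896-53160145 (minus strand), Abcf1 at chr17:35969751-35970000 (minus strand), Abcb1b at chr5:8797897-8798146 (plus strand) and Abce1 at chr8:79711741-79711990 (minus strand). Abca1 and Abcf1, which moved in opposite directions under DOX, hold the motif, and Abcb1b and Abce1, which both fell, do not hold these letters.
Abca1: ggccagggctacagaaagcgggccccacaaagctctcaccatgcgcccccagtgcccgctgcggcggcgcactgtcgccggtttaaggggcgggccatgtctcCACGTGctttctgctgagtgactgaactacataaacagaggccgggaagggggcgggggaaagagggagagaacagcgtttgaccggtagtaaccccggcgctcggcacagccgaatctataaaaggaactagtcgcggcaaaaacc
Abcf1: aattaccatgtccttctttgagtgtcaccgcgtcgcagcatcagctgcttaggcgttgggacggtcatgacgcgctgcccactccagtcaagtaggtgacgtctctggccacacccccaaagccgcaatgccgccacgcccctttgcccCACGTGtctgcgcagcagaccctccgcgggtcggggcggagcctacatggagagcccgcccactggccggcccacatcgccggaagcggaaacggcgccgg
Abcb1b: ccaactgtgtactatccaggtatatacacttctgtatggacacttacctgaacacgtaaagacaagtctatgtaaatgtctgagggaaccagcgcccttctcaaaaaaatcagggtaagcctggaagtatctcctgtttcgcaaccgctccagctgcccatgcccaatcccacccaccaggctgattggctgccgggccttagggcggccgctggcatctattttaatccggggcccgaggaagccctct
Abce1: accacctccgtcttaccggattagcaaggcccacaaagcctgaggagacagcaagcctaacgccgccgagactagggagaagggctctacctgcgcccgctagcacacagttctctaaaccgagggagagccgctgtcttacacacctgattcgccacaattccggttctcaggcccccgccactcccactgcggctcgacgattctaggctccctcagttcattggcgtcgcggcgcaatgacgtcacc
The motif CACGTG, which reads the same on both strands and was the only motif searched, begins 147 bases before the start in Abca1 and 101 bases before it in Abcf1. It was found in 5 of 45 ABC promoters (11.1%), against 1978 of 32851 promoters of the same length (6.02%). RefSeq promoters matched 38 ABC genes. The other carriers were Abca8a, Abca15 and 1 of the promoters of Abcc4. One of 10 genes with a promoter that rose under DOX in both lines held it, and 1 of 6 that fell in both. A match is a description of the letters only.

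Among the drug and organic anion pumps, Abcb1b fell most. Abcb1b encodes one of the pair of mouse P-glycoproteins, the classical multidrug pump. It was at 2.79, 2.95 and 2.69 CPM under DOX and at 28.9, 28.2 and 28.0 CPM under DMSO in GTML3, and at 5.86, 5.64 and 5.59 CPM under DOX and 64.0, 70.1 and 63.9 CPM under DMSO in preGTS1. Every DOX library was far below every DMSO library of its line. The fall was 10.1-fold in GTML3 (log2 -3.34, SE 0.11, adjusted p = 9.73e-13) and 11.6-fold in preGTS1 (log2 -3.53, SE 0.11, adjusted p = 3.3e-13). Reads of Abcb1b, Abcb1a and Abcb4 may be divided between these similar neighbours, and Abcb4 moved the other way: it rose by 0.85 in GTML3 and had a log2 change of 0.20 in preGTS1 (adjusted p = 0.0624).

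Abcg2, the breast cancer resistance protein and a marker of dye-excluding stem-like cells, fell in both lines and by unequal amounts. In preGTS1 it was at 4.98, 4.09 and 5.89 CPM under DOX and 31.9, 34.9 and 38.7 CPM under DMSO, a 7.11-fold fall (log2 -2.83, adjusted p = 2.2e-11). In GTML3 it was at 28.5, 30.8 and 30.6 CPM under DOX and 44.3, 51.8 and 49.7 CPM under DMSO, a 1.62-fold fall (log2 -0.70, SE 0.13, adjusted p = 1.86e-04). Groups were apart in both lines, and the difference between the responses passed its own test (-2.13, SE 0.18, adjusted p = 3.1e-07). Abcc4, which exports cyclic nucleotides, did the reverse. In GTML3 it was at 0.274, 0.477 and 0.657 CPM under DOX and 1.58, 2.10 and 1.96 CPM under DMSO (log2 -2.08, SE 0.26, adjusted p = 3.33e-06), on 3, 6 and 12 reads under DOX. In preGTS1 it was at 20.6, 25.2 and 24.8 CPM under DOX and 27.1, 26.5 and 24.8 CPM under DMSO (log2 -0.16, adjusted p = 0.604), and the groups overlapped. The responses differed by 1.92 (SE 0.37, adjusted p = 6.47e-04).

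The other pumps of this list were Abcc1, Abcc5, Abcc10 and Abcc12. Abcc1, which exports glutathione conjugates, was at 53.7, 51.1 and 52.2 CPM under DOX and 105, 114 and 102 CPM under DMSO in preGTS1 (log2 -1.03, adjusted p = 2.34e-08), and fell by 0.35 in GTML3 (SE 0.09, adjusted p = 0.00167). Abcc5, another exporter of organic anions and cyclic nucleotides, rose in both lines. It was at 129, 128 and 128 CPM under DOX and 60, 58.8 and 59.9 CPM under DMSO in GTML3, and at 151, 147 and 148 CPM under DOX and 63.4, 73.2 and 61.7 CPM under DMSO in preGTS1 (log2 1.11 and 1.17). Abcc10 rose by 1.04 in GTML3 and 0.43 in preGTS1. Abcc12 was called higher in both lines on few reads, with 11, 19 and 8 under DOX and 5, 0 and 1 under DMSO in GTML3, and 53, 72 and 62 under DOX and 15, 19 and 10 under DMSO in preGTS1. Of the 7 listed pumps in the table, 3 rose and 4 fell in GTML3 (median -0.35), and 3 rose, 3 fell and 1 did not pass in preGTS1 (median -0.16). Over all genes 34.5% rose and 31.4% fell in GTML3, and 34.5% rose and 33.7% fell in preGTS1. The companion list of xenobiotic enzymes and regulators showed no common direction: of 9 in the table, 3 rose and 4 fell in GTML3, and 2 rose and 3 fell in preGTS1, with medians of -0.01 in both. Its largest falls were Gclc in preGTS1 (-1.69) and Gsr in GTML3 (-1.45), which synthesise and recycle glutathione. Nqo1 was called higher in GTML3 on 2, 3 and 2 reads under DOX against 0 in each DMSO library.

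**Figure D2:**
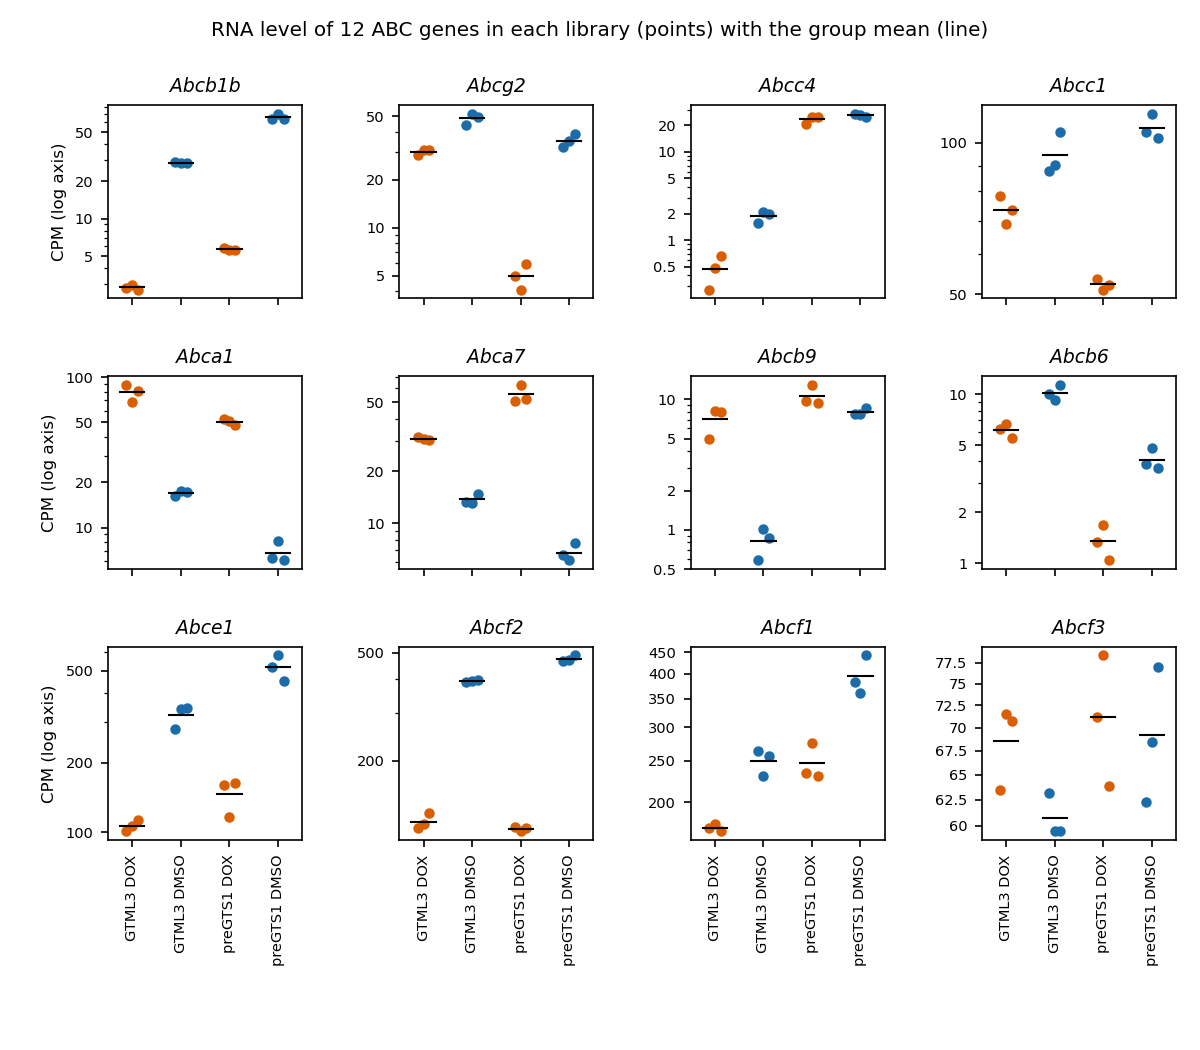
CPM (log axis) of 12 ABC genes in every treated-line library, with DOX in orange, DMSO in blue and a line at the mean of 3. Abcb1b, Abce1 and Abcf2 are lower in every DOX library of both lines, Abca1 and Abca7 are higher, and Abcf3 overlaps between the groups in preGTS1.

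Transporters of sterols and phospholipids rose as a group by count. Of 11 in the table, 9 rose and 1 fell in GTML3 (median 1.16), and 8 rose and none fell in preGTS1 (median 1.63), beside 34.5% of all genes higher in either line. Abca1, which loads cellular cholesterol onto apolipoproteins, was at 89.3, 68.5 and 81.2 CPM under DOX and 16.3, 17.6 and 17.1 CPM under DMSO in GTML3, a 4.66-fold rise (log2 2.22, SE 0.12, adjusted p = 3.19e-10). In preGTS1 it was at 52.5, 51.1 and 48.3 CPM under DOX and 6.27, 8.14 and 6.04 CPM under DMSO, a 7.49-fold rise (log2 2.91, adjusted p = 1.02e-11). The lines were apart in both conditions, and the rise was larger in preGTS1 by 0.69 (SE 0.18, adjusted p = 0.0054).

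Abca7, a relative of Abca1 linked to phagocytosis and in humans to Alzheimer's disease risk, showed the widest gap between the lines among the genes that rose in both. It was at 51.1, 63.2 and 52.3 CPM under DOX and 6.54, 6.09 and 7.64 CPM under DMSO in preGTS1 (8.22-fold, log2 3.04, adjusted p = 3.31e-12). In GTML3 it was at 31.3, 30.7 and 30.1 CPM under DOX and 13.2, 13.1 and 14.8 CPM under DMSO (2.24-fold, log2 1.16, SE 0.12, adjusted p = 3.06e-07). The responses differed by 1.87 (SE 0.17, adjusted p = 4.44e-07). Abca4, known as the retinal-lipid flippase of photoreceptors, rose 6.79-fold in GTML3 and 7.74-fold in preGTS1, but from unlike levels. It was at 347, 333 and 339 CPM under DOX and 47.6, 51.2 and 51.2 CPM under DMSO in GTML3, and at 11.3, 10.3 and 11 CPM under DOX and 1.25, 1.36 and 1.62 CPM under DMSO in preGTS1.

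Abca3, the phospholipid transporter of lung surfactant, rose by 1.70 in GTML3 and 1.96 in preGTS1. Its levels were 129, 110 and 114 CPM under DOX and 35.1, 35.1 and 38.1 CPM under DMSO in GTML3, and 124, 131 and 128 CPM under DOX and 37.9, 29.6 and 31.7 CPM under DMSO in preGTS1. Abca8b rose by 1.24 in GTML3 and 1.63 in preGTS1, Abca5 by 1.41 in GTML3 and 1.02 in preGTS1, and Abca2 by 0.73 in GTML3 and 0.51 in preGTS1. Abcg4, the brain relative of Abcg1, rose by 0.88 in GTML3 and 1.58 in preGTS1. Abca9 fell by 0.82 in GTML3 and had a log2 change of 0.11 in preGTS1. Its responses differed by 0.93 (SE 0.22, adjusted p = 0.00301).

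Abcg1, which passes cholesterol to lipoprotein particles, stood apart in being nearly absent from GTML3. It had 0, 4 and 1 reads under DOX and 2, 2 and 1 under DMSO in GTML3. In preGTS1 it was at 18.1, 20.3 and 13.1 CPM under DOX and 4.58, 4.56 and 6.86 CPM under DMSO, with no overlap. The limma fit, which shares its spread with the near-empty GTML3 libraries, gave a log2 change of 1.69 (SE 0.81, adjusted p = 0.0779) and did not call it, while edgeR on the recovered reads gave an adjusted p of 3.73e-06. Partners of the liver X receptor, which induces Abca1 and Abcg1, mostly fell in GTML3 and had no common direction in preGTS1. Of 9, 2 rose and 6 fell in GTML3 (median -0.52), beside 34.5% of all genes higher and 31.4% lower. In preGTS1 3 rose and 4 fell (median 0.02), beside 34.5% and 33.7%. Nr1h3, which encodes the receptor's alpha form, rose by 1.42 in GTML3 and 1.93 in preGTS1, the fatty acid desaturase gene Scd1 fell by 2.80 in GTML3 and 1.92 in preGTS1, and the phospholipid transfer protein gene Pltp fell by 0.78 in GTML3 and rose by 2.07 in preGTS1.

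Markers of other cell types were read in the same libraries. Of 7 endothelial markers only Pecam1 and Kdr were in the table, and their summed level was 59.8 to 65.6 CPM under DOX and 3.82 to 5.41 CPM under DMSO in preGTS1, and 4.81 to 8.27 CPM under DOX and 2.07 to 2.43 CPM under DMSO in GTML3. Kdr carried the sum in preGTS1, with 1068, 920 and 1048 reads under DOX and 49, 60 and 51 under DMSO, while Pecam1 had 50, 47 and 34 reads under DOX and 34, 56 and 37 under DMSO and did not pass the test (log2 0.39, adjusted p = 0.401). In GTML3 both were called higher. The 3 of 6 mural and fibroblast markers summed to 259 to 270 CPM under DOX and 113 to 160 CPM under DMSO in preGTS1, and 4.13 to 5.29 CPM and 3.74 to 5.02 CPM in GTML3. Col3a1 made up nearly all of it in preGTS1 and did not pass by limma (log2 0.88, adjusted p = 0.103). Pdgfrb was called higher in preGTS1 (log2 2.22), on 100, 114 and 90 reads under DOX and 31, 20 and 32 under DMSO. The 3 oligodendrocyte markers in the table summed to 39.0 to 41.2 CPM under DOX and 20.3 to 23.1 CPM under DMSO in GTML3, and 27.2 to 31.1 CPM and 25.2 to 32.6 CPM in preGTS1. Of 9 microglial markers only Tmem119 was in the table, at or under 5.31 CPM in every library. Their part in the changes of ABC genes was not tested.

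Of the mitochondrial members, Abcb6 fell and Abcb8 rose in both lines. Abcb6, a porphyrin transporter, fell by 0.73 in GTML3 (SE 0.21, adjusted p = 0.00635) and by 1.62 in preGTS1 (adjusted p = 4.96e-06). Abcb8 rose by 1.02 in GTML3 and 0.51 in preGTS1. Abcb10, which serves haem synthesis in red cell precursors, was at 53.3, 51.0 and 51.2 CPM under DOX and 56.5, 54.9 and 55.2 CPM under DMSO in GTML3 (log2 -0.10) and had a log2 change of 0.00 in preGTS1. Of 12 iron-sulfur and haem genes, 3 rose and 5 fell in GTML3 (median -0.10), with Glrx5 falling by 1.13. In preGTS1 2 rose and 5 fell (median -0.07), with Slc25a37 falling by 1.42 and Cpox by 1.37. These counts stand beside 34.5% of all genes higher and 31.4% lower in GTML3, and 34.5% and 33.7% in preGTS1.

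Among the peroxisomal and lysosomal members, Abcd4, which takes part in lysosomal release of cobalamin, rose by 0.62 in GTML3 and had a log2 change of 0.26 in preGTS1 (adjusted p = 0.0854). Abcd3, the importer of branched-chain fatty acids, fell by 0.39 in preGTS1 (adjusted p = 2.73e-04) and had a change of -0.12 in GTML3, and Abcd2 had changes of -0.23 in GTML3 and -0.13 in preGTS1 that did not pass. Abcb9, a lysosomal peptide transporter, was at 4.96, 8.20 and 8.05 CPM under DOX and 0.582, 1.02 and 0.861 CPM under DMSO in GTML3 (log2 3.11, SE 0.25, adjusted p = 2.08e-08). In preGTS1 it was at 9.72, 13 and 9.34 CPM under DOX and 7.69, 7.72 and 8.56 CPM under DMSO (log2 0.41, adjusted p = 0.159), so the lines differed under DMSO far more than under DOX. The responses differed by -2.70 (SE 0.35, adjusted p = 2.3e-05). Of 8 peroxisomal partner genes, 3 rose and 2 fell in GTML3 (median 0.14), beside 34.5% of all genes higher and 31.4% lower. In preGTS1 3 rose and 1 fell (median 0.18), beside 34.5% and 33.7%. Acaa1a, a peroxisomal thiolase gene, was called higher in GTML3 on 1, 0 and 5 reads under DOX against 0 in each DMSO library.

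The members without a membrane domain fell, apart from Abcf3. Abcf2 was at 113, 117 and 128 CPM under DOX and 391, 393 and 397 CPM under DMSO in GTML3 (3.3-fold lower, log2 -1.72, SE 0.07, adjusted p = 7.4e-12), and at 114, 110 and 113 CPM under DOX and 465, 469 and 488 CPM under DMSO in preGTS1 (4.22-fold lower, log2 -2.08, adjusted p = 7.3e-13). Abce1, which splits ribosomes after termination, was at 101, 106 and 113 CPM under DOX and 280, 343 and 345 CPM under DMSO in GTML3 (3.01-fold lower, log2 -1.59, SE 0.13, adjusted p = 4.41e-08), and at 160, 116 and 164 CPM under DOX and 519, 583 and 450 CPM under DMSO in preGTS1 (3.55-fold lower, log2 -1.83, adjusted p = 7.15e-09). In both genes every DOX library was below every DMSO library by a wide margin. Abcf1, which promotes translation initiation, fell by 0.52 in GTML3 (SE 0.09, adjusted p = 1.37e-04) and by 0.68 in preGTS1 (adjusted p = 7.86e-06), while Abcf3 had changes of 0.17 and 0.04 that did not pass. Genes acting with Abce1 in ribosome recycling and termination fell too: 8 of 10 in GTML3 (median -0.79; Denr by 1.42 and Gspt1 by 1.33) and 9 of 10 in preGTS1 (median -0.63; Gspt1 by 1.69 and Eif3j1 by 1.52), with none higher in either line, beside 31.4% and 33.7% of all genes lower. With these 4 members left out, the 28 ABC genes that have membrane domains had 16 higher and 7 lower in GTML3 (median 0.79), and 13 higher and 6 lower in preGTS1 (median 0.42). Their share called was 82.1% in GTML3, beside 65.8% of all genes, and 67.9% in preGTS1, near the 68.3% of all genes. Over all genes 34.5% were higher in each line, with 31.4% lower in GTML3 and 33.7% lower in preGTS1.

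The DOX responses of the lines differed for 13 of 32 ABC genes, 4 with a higher value in preGTS1 and 9 with a lower one, beside 42.2% of all genes, 17.1% higher and 25.1% lower. The median difference was -0.21 over the ABC genes and -0.098 over all genes. Among those that differed were some named above (Abca1, Abca7, Abca9, Abcb9, Abcc4, Abcg2 and, with -0.88, SE 0.30 and adjusted p = 0.0265, Abcb6) and also Abcb4 (-0.65), Abcb8 (-0.51), Abcc1 (-0.68), Abcc10 (-0.62) and Abcf2 (-0.35). Abcb1b did not pass, with a difference of -0.20 (SE 0.15, adjusted p = 0.316), and neither did Abce1 (-0.24, adjusted p = 0.321).

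The lines also differed from each other before DOX. Under DMSO, 14 ABC genes were higher and 10 lower in preGTS1 than in GTML3, beside 66.4% of all genes called (38.5% higher, 27.9% lower), and under DOX 14 were higher and 12 lower, beside 72.0% (36.9% higher, 35.0% lower). These comparisons use the same libraries as the DOX comparisons. Abca4 was lower in preGTS1 by 5.16 under DMSO (35.7-fold) and by 4.97 under DOX. Abcc4 was higher in preGTS1 14-fold under DMSO (log2 3.81, adjusted p = 4.02e-09) and 53.1-fold under DOX (log2 5.73). Abcg2 was lower 6.07-fold in preGTS1 under DOX (log2 -2.60).

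Abcc8, the sulfonylurea receptor subunit of ATP-sensitive potassium channels, had 22, 27 and 42 reads under DOX and 73, 71 and 77 under DMSO in preGTS1, and 0 in all 6 GTML3 libraries. Against a floor of 3 reads per library, it was at least 7.59-fold higher in preGTS1 than in GTML3 under DOX and at least 21.2-fold higher under DMSO. Its lower level under DOX in preGTS1 was not called by limma (adjusted p = 0.241) and was called by edgeR (adjusted p = 0.0128). Why the 2 differ was not tested. Under DMSO other large differences included higher values in preGTS1 for Abcb9 (3.32), Abcc12 (3.48, on few reads), Abca8b (2.75), Abcd4 (1.36) and Abcb1b (1.22, adjusted p = 9.06e-08), and lower ones for Abcb4 (-1.81), Abcd2 (-1.73), Abca1 (-1.33) and Abcb6 (-1.32). Under DOX, Abca8b (3.14), Abcc12 (2.09), Abca9 (1.73) and Abcb1b (1.02) were higher in preGTS1, and Abcb4 (-2.46), Abcb6 (-2.20) and Abcd2 (-1.63) were lower.

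In the tumors, 1 property of the deposited values comes first. The column headers carry 1 of 2 numbers, read here as a batch of 8 libraries (2 GTS, 6 GTML) and a batch of 6 (4 GTS, 2 GTML); what the number stands for is not stated. In the batch of 8, whole chromosomes were shifted: library medians on chromosomes 12 to 19 and X ran from -2.85 to 3.25 in log2 units, against -0.53 to 0.49 on chromosomes 1 to 11. In the batch of 6 they stayed within -0.37 and 0.35. The cause was not tested. Of the 39 ABC genes tested, 12 lie on the shifted chromosomes, among them Abcd4, Abcc4, Abcd2, Abcc1, Abcc5, Abcf3, Abca3, Abcg1, Abcf1 and Abcc10. All 12 had a negative pooled difference (median -0.71), but 8 of 12 had a positive one within the batch of 6 (median 0.30), so their pooled values show no direction. The 27 others had 18 positive and 9 negative differences pooled (median 0.19) and 14 and 13 within the batch of 6 (median 0.12).

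**Figure D3:**
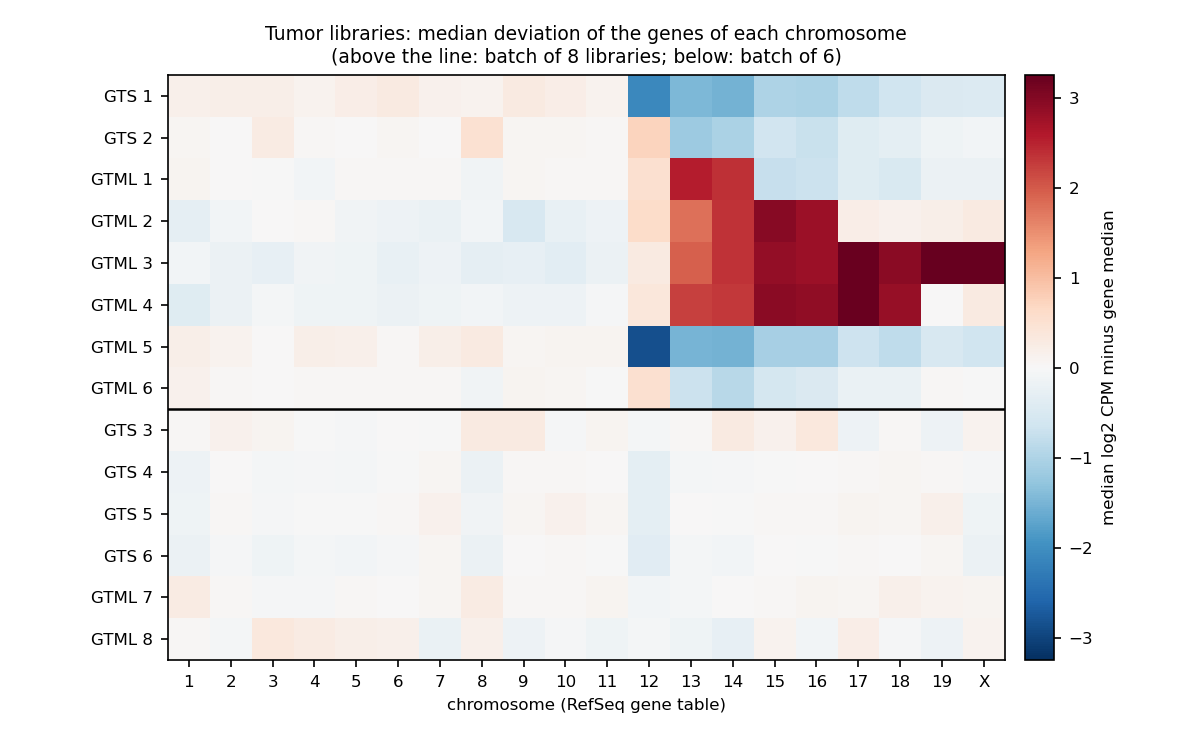
Median deviation of the genes of each chromosome from their own median over the 14 tumors (log2 CPM, colour), for each library, with the batch of 8 libraries above the line and the batch of 6 below it. Libraries above the line deviate on chromosomes 12 to 19 and X, where 12 of the ABC genes lie.

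No ABC gene differed between GTS and GTML tumors by limma with a batch term over all 15708 genes, where 0.0573% of all genes passed (0.0509% higher, 0.00637% lower). Without the term 6 passed, all higher in GTS tumors, beside 5.88% of all genes, with errors that are too small. At an unadjusted p under 0.05, 13 of 39 did (33.3%), against 19.5% of all genes, and the lowest adjusted p was 0.0669, for Abca1. On chromosomes 1 to 11 alone, a choice made after the shifts were seen, 4 of 27 ABC genes passed, all higher in GTS tumors, beside 4.44% of those genes (3.2% higher). They were Abca1 (0.94, SE 0.18, adjusted p = 0.028), Abca8b (2.77, SE 0.61, adjusted p = 0.0313), Abca7 (1.51, SE 0.37, adjusted p = 0.0398) and Abcc8 (1.74, SE 0.46, adjusted p = 0.0466). Within the batch of 6 alone none passed, as did 0.0% of all genes, with 13 of 39 (33.3%) at an unadjusted p under 0.05 against 18.4%.

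Abca1 in GTS tumors had a lowest, median and highest level of 7.78, 8.51 and 8.69 log2 CPM, against 7.12, 7.46 and 8.06 in GTML tumors. One GTS tumor, number 3, lay within the GTML range and the other 5 above it. The difference was 1.04 within the batch of 8 and 0.82 within the batch of 6. Abca7 ran at 5.77, 7.31 and 7.60 log2 CPM in GTS tumors and 4.13, 5.65 and 6.31 in GTML tumors (0.88 within the batch of 8, 2.23 within the batch of 6), and Abcc8 at 5.38, 7.13 and 7.55 in GTS and 3.92, 4.96 and 5.75 in GTML (1.23 and 2.32 within them). Each pair of ranges overlapped at its edge.

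**Figure D4:**
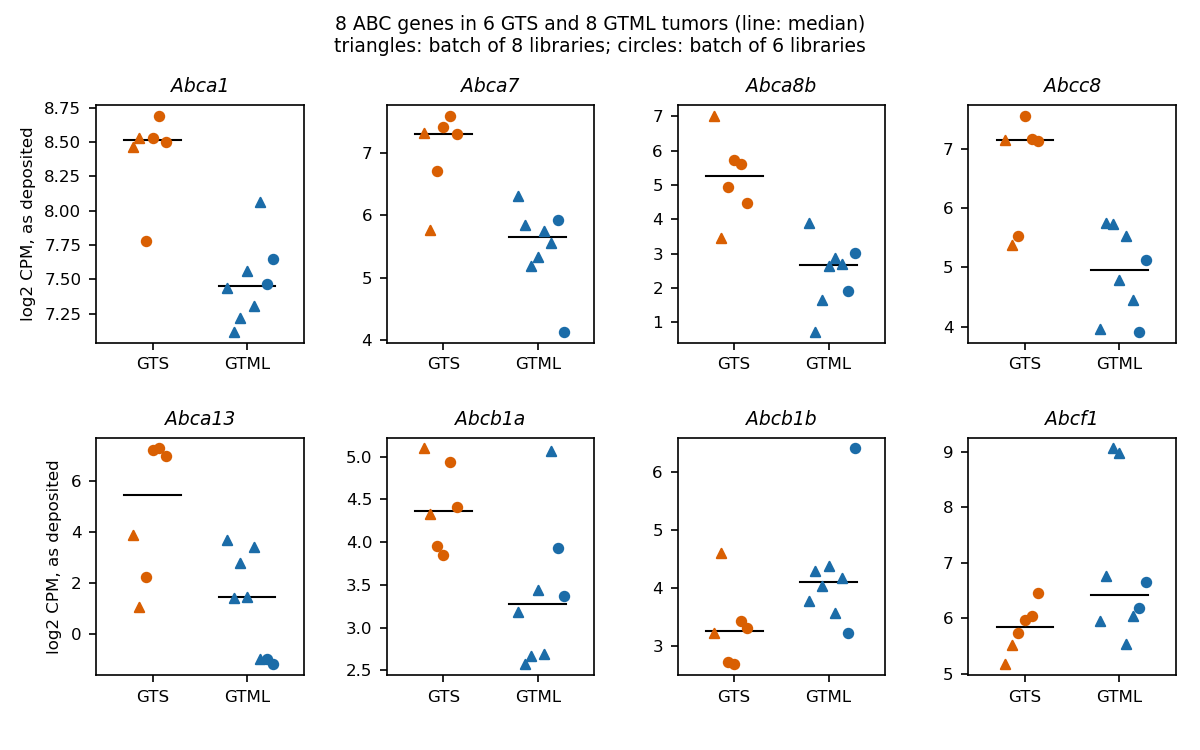
Deposited log2 CPM of 8 ABC genes in 6 GTS and 8 GTML tumors, each point 1 tumor, with triangles for the batch of 8 libraries, circles for the batch of 6 and a line at the median. Abca1, Abca7, Abca8b and Abcc8 have higher medians in GTS tumors with overlapping ranges, and Abcf1, on a shifted chromosome, has GTML tumors up to 9.06.

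The other large tumor differences were on genes with wide spread. Abca13, whose substrate is little known, was at 1.06, 5.45 and 7.30 log2 CPM (lowest, median, highest) in GTS tumors and -1.21, 1.42 and 3.70 in GTML tumors, a difference of 3.60 (SE 1.36, adjusted p = 0.184). Within the batch of 6 it was at 2.22 to 7.30 in GTS and -1.21 to -1.02 in GTML tumors, a difference of 7.06 on 4 against 2 tumors, while within the batch of 8 the difference was 0.53. Abca8b ran at 3.47, 5.27 and 7.01 in GTS and 0.73, 2.68 and 3.90 in GTML tumors, and its neighbour and close relative Abca8a at 2.4, 4.16 and 6.75 in GTS and -1.48, 1.63 and 3.34 in GTML (2.72, adjusted p = 0.133), so reads of the pair may be shared. Abcc12 was at 1.39, 2.46 and 4.16 in GTS and -1.30, 0.72 and 2.0 in GTML tumors. Abcd2, a peroxisomal importer on shifted chromosome 15, was at 1.76, 3.24 and 5.01 in GTS and 3.64, 5.91 and 6.88 in GTML tumors. Its difference was -2.78 within the batch of 6. Within the batch of 8 it was -1.66, but library medians of chromosome 15 ran from -1.07 to 2.97 there. That value therefore shows no direction for the gene.

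Efflux pumps gave no call in tumors. Abcb1a, the P-glycoprotein form of brain endothelium, ran at 3.85, 4.37 and 5.10 log2 CPM in GTS tumors and 2.57, 3.28 and 5.07 in GTML tumors (1.07, adjusted p = 0.224). Abcb1b ran the other way, at 2.68, 3.26 and 4.60 in GTS and 3.21, 4.09 and 6.40 in GTML tumors (-0.90, adjusted p = 0.346). Its difference was -0.12 within the batch of 8 and -1.78 within the batch of 6, where the 2 GTML tumors, numbers 7 and 8, were far apart at 3.21 and 6.40. Abcg2 was at 2.63, 4.40 and 5.51 in GTS and 3.65, 4.97 and 6.16 in GTML tumors (-0.80), with opposite signs within the batch of 8 (0.19) and the batch of 6 (-1.90). For all 3 the ranges overlapped. Abce1 differed by -0.09 and Abcf2 by -0.29. Mycn itself had a pooled difference of -0.63 that did not pass (adjusted p = 0.205). It lies on a shifted chromosome, so that value shows no direction.

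No marker of other cells was called between the tumor kinds in the fit with a batch term. That fit called only 0.0573% of all genes, so the lack of a call says little. Without the term, where errors are too small, 1 microglial marker was higher in GTS tumors and 1 T and NK cell marker lower. The ranges of the summed marker levels overlapped. On chromosomes 1 to 11, the 3 oligodendrocyte markers summed to 69.3, 127 and 541 CPM (lowest, median, highest) in GTS and 21.0, 52.1 and 97.0 CPM in GTML tumors, and the 7 microglial markers to 196, 275 and 466 CPM in GTS and 100, 148 and 414 CPM in GTML tumors. The 6 endothelial markers summed to 147, 196 and 382 CPM in GTS and 119, 166 and 246 CPM in GTML tumors, and the 4 mural and fibroblast markers to 113, 358 and 394 CPM in GTS and 96.6, 407 and 1320 CPM in GTML tumors. Their part in the levels of Abca1, Abca7, Abca8b and the other members was not tested.

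Promoter regions of most ABC genes stayed within 2-fold under DOX, as did those of most genes. The duplicates of each ATAC sample differed by somewhat more than counting noise, which gives a chi-square per degree of freedom of 1 (1.849 to 2.056 here). Nothing says that they came from separate tumors or cultures, and they were averaged and counted as 1 sample, so folds of mean CPM are given with no test, and past 2-fold means a region with a mean of at least 1 CPM in either group. Under DOX in GTML3, 6 of 34 ABC promoter regions were past 2-fold, 2 higher and 4 lower, beside 6.21% higher and 6.55% lower among all regions within 1 kb of a start. In preGTS1 4 of 35 were, 2 higher and 2 lower, beside 3.01% and 4.29%. Of the genes called higher in RNA, 13 of 15 with a region in GTML3 and 11 of 12 in preGTS1 stayed within 2-fold, beside 92.4% and 95.3% of all genes called higher. Of those called lower 8 of 9 in GTML3 and 8 of 8 in preGTS1 did, beside 96.1% and 97.7%, so the ABC genes were near the background.

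Abcb1b had the largest fall in RNA. Its region at chr5:8797844-8799057 (mm9), which also spans the start of Gm5106, was at 117.7 and 84.61 CPM under DOX and 91.53 and 83.80 CPM under DMSO in GTML3 (1.15-fold), while its RNA was 10.1-fold lower. In preGTS1 it was at 34.80 and 37.96 CPM under DOX and 57.23 and 52.10 CPM under DMSO (0.666-fold), beside an 11.6-fold lower RNA. The regions of Abce1 (1.07 and 1.06) and Abcf2 (0.944 and 1.19) and the region at the start of Abca1 (0.832 and 1.17) were also within 2-fold of DMSO in GTML3 and preGTS1.

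The regions past 2-fold under DOX mostly held few reads. In GTML3, Abca7 was at 12.39 and 12.09 CPM under DOX and 8.009 and 3.591 CPM under DMSO (2.11-fold, 22 and 20 reads), in the direction of its RNA. Abcg4 (2.04), Abcg1 (0.22), Abcc9 (0.378), Abca9 (0.401) and Abca14 (0.443) had at most 31 reads in either condition. In preGTS1, Abcb10 was at 18.69 and 20.18 CPM under DOX and 9.317 and 9.906 CPM under DMSO (2.02-fold), with no change called in its RNA, and Abcg4 was 2.17-fold higher on 71 and 38 reads. Abca9 was lower in preGTS1 also, at 6.687 and 3.420 CPM under DOX and 11.98 and 13.12 CPM under DMSO (0.403), as was Abcc9 (0.422, 13 and 37 reads).

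Between sources, larger shares of the ABC regions were past 2-fold. In preGTS1 relative to GTML3 under DMSO, 10 of 35 regions were past 2-fold, beside 13.7% higher and 11% lower at all starts. Abcc8, with no RNA read in GTML3, had 57 reads in preGTS1 and 3 in GTML3 (4.50-fold by CPM). Abcg1, nearly without RNA in GTML3, was 2.63-fold higher on 92 and 8 reads. A second region of Abca9 (2.39, on 30 and 3 reads) and Abcc6 (2.25, on 20 and 2 reads) were also higher, on few reads in GTML3. The libraries of Abcc6 overlapped. Abcd2 was at 26.77 and 31.13 CPM in preGTS1 and 119.0 and 98.16 CPM in GTML3 (0.267), and Abca4 at 13.61 and 13.38 CPM in preGTS1 and 34.32 and 31.72 CPM in GTML3 (0.409), both in the direction of the RNA. Abcc4 went against its RNA, at 15.08 and 17.24 CPM in preGTS1 and 28.03 and 19.75 CPM in GTML3 (0.676), and Abcc1 was lower (0.397).

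In the GTS sources, 16 of 32 ABC regions in GTS1 and 13 of 34 in GTS2 were past 2-fold relative to GTML3 under DMSO, beside 19.3% higher and 17.8% lower at all starts for GTS1, and 17.9% and 16.7% for GTS2. Both comparisons share the GTML3 libraries. Abca4 was at 3.753 and 0.4796 CPM in GTS1, 0.0 and 1.207 CPM in GTS2, and 34.32 and 31.72 CPM in GTML3. Abcd2 was at 20.02 and 20.14 CPM in GTS1, 4.218 and 1.810 CPM in GTS2, and 119.0 and 98.16 CPM in GTML3. Both genes were lower in both GTS sources. GTS2 was the lower for Abcd2, while for Abca4 the libraries of the 2 sources interleaved. Abcb10 was 3.57-fold higher in GTS1 and 2.70-fold in GTS2, and Abcg1 2.41-fold and 7.85-fold, the latter gene over 8 reads in GTML3. Abca7 (2.70) and Abca8b (2.32) were higher in GTS1, with Abcc9 (0.169, on 4 and 15 reads) and Abcb4 (0.197) lower. Abcc6 (17.3, on 28 and 2 reads) and Abcc4 (2.72) were higher in GTS2. A second region of Abca1 (0.0935, on 1 and 11 reads) and Abca9 (0.300, on 7 and 31 reads) were lower in GTS2.

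Between the GFP and nonGFP fractions no ABC region was past 2-fold, of 32 tested, beside 0.592% higher and 0.243% lower at all starts. The largest folds were 1.97 for Abcg2, on 35 and 23 reads, 1.66 for Abca15, 1.34 for Abcb1b and 1.24 for Abcb1a. The lowest were 0.769 for a second region of Abcb8 and 0.796 for Abcd4.

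In single cells Abcf1, Abce1 and Abcf2, which have no membrane domain, were the members most captured. fGTS2 held 4498 cells (median 20893.5 UMIs) and GTML_SOX9-GFP 4645 (median 18744), with 1 library per model and therefore no test; brackets give exact 95% Poisson intervals, which cover counting error only. Levels are UMIs per 1 M UMIs of the library (UMIs per M). Abcf1 had 192.1 UMIs per M (189.5 to 194.8) in fGTS2 and 194.8 (192.0 to 197.6) in GTML_SOX9-GFP. Abce1 had 80.95 (79.22 to 82.71) in fGTS2 and 110.2 (108.1 to 112.3) in GTML_SOX9-GFP, and Abcf2 79.61 and 84.28. Abcf3, also without a membrane domain, was lower, at 17.56 in fGTS2 and 15.51 in GTML_SOX9-GFP. Other well captured members were Abca3 (24.31), Abcb8 (23.31) and Abcc5 (22.39) in fGTS2, and Abcd3 (20.50) and Abca3 (19.10) in GTML_SOX9-GFP.

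**Figure D5:**
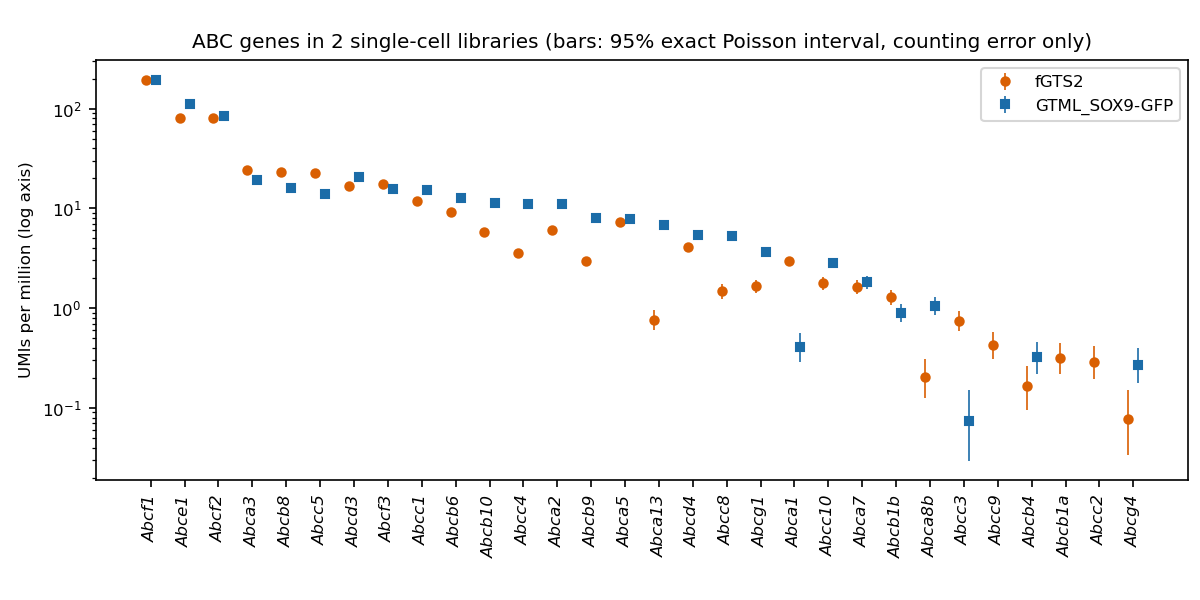
UMIs per M (log axis) of 30 ABC genes in the single-cell libraries fGTS2 and GTML_SOX9-GFP, with exact 95% Poisson intervals for counting error; a gene with a point for fGTS2 only has no row in the GTML_SOX9-GFP matrix. Abcf1, Abce1 and Abcf2 lie above 70 in both libraries, Abca1 is higher in fGTS2, and Abca13, Abcc4 and Abcc8 are higher in GTML_SOX9-GFP.

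Several lipid and efflux members differed between the libraries beyond counting error. Abca1 had 2.934 UMIs per M (2.613 to 3.284) in fGTS2 and 0.4071 (0.2895 to 0.5565) in GTML_SOX9-GFP, the same direction as in the bulk tumors. Abca7, also called higher in GTS tumors on chromosomes 1 to 11, had 1.627 in fGTS2 and 1.816 in GTML_SOX9-GFP with overlapping intervals, and Abca8b had 0.2033 in fGTS2 and 1.054 in GTML_SOX9-GFP, the opposite order. Abcc3, an exporter of bile acids and glucuronides, had 77 UMIs in fGTS2 and 7 in GTML_SOX9-GFP. Abca13 had 0.7650 per M (0.6056 to 0.9534) in fGTS2 and 6.742 (6.232 to 7.283) in GTML_SOX9-GFP, and Abcc8 1.472 (1.247 to 1.725) in fGTS2 and 5.323 (4.871 to 5.806) in GTML_SOX9-GFP, both opposite in sign to the differences between the bulk tumors. Abcc4 (3.573 in fGTS2, 11.06 in GTML_SOX9-GFP) and Abcb9 (2.934 in fGTS2, 8.078 in GTML_SOX9-GFP) were lower in fGTS2, and Abcc5 (22.39 and 14.08) was higher. Abcb1b was scarce at 1.288 (1.078 to 1.526) in fGTS2 and 0.8976 (0.7180 to 1.109) in GTML_SOX9-GFP, as was Abcg2 with 9 UMIs in fGTS2 and 19 in GTML_SOX9-GFP; both pairs of intervals overlapped. Abcb1a had 0.3195 per M in fGTS2 and was not in the other table. With 1 library each, model and library cannot be told apart.

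Within a library, cells in which a Sox9 UMI was captured were set beside cells without one. These are classes of captured UMIs and not of cells that express Sox9, since free RNA can also give UMIs. A Sox9 UMI was found in 15 of the 20 fGTS2 cells with at least 2 endothelial or microglial markers. That is 75.0% (exact binomial interval 50.90 to 91.34, median 27127.5 UMIs), against 65.97% of the other fGTS2 cells (median 20889 UMIs). In GTML_SOX9-GFP the share was 1 of 3 such cells and 13.05% of the others. Only 2 of 7 endothelial and 3 of 9 microglial markers were in the fGTS2 table, so the 20 cells may include tumor cells. These shares therefore do not measure free RNA. Cells with a Sox9 UMI were deeper, with median UMIs of 22188 against 19166 in fGTS2 and 22673 against 18148 in GTML_SOX9-GFP. In fGTS2, Abca1 had 3.467 UMIs per M (3.054 to 3.921) in 2969 cells with a Sox9 UMI and 1.633 (1.208 to 2.158) in 1529 without. Abca7 had 1.843 (1.545 to 2.181) with and 1.100 without. Cells with at least 8000 UMIs were then thinned to 8000, and shallower cells left out. The classes were drawn again from the UMIs left, so they do not hold the same cells. Abca1 in fGTS2 was then at 4.316 with a Sox9 UMI and 2.299 without. In GTML_SOX9-GFP thinning left 2 and 9 UMIs of Abca1 with and without Sox9, too few to order.

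Cells with an Mki67 or Top2a UMI, both genes of proliferating cells, were compared in the same way, and again the classes are of captured UMIs. An Mki67 or Top2a UMI was found in 75.0% of the same 20 fGTS2 cells and in 71.88% of the others, which again does not measure free RNA. Abcf2 had 85.82 UMIs per M (83.81 to 87.86) in 3234 such fGTS2 cells and 57.25 in 1264 others, and 86.63 (84.67 to 88.61) in 3949 such GTML_SOX9-GFP cells and 63.13 in 696 others. Abce1 had 85.34 and 65.14 in fGTS2, and 111.7 and 96.06 in GTML_SOX9-GFP, in the same order. Abcc5 and Abca1 ran the other way, with 21.20 with and 26.66 without these UMIs for Abcc5 in fGTS2, 13.47 and 19.55 in GTML_SOX9-GFP, and 2.276 and 5.306 for Abca1 in fGTS2. The cells with these UMIs were deeper (median 23320.5 against 17406.5 UMIs in fGTS2, 20023 against 13561.5 in GTML_SOX9-GFP). After the same thinning, with the classes again drawn from the UMIs left, Abcf2 was at 86.98 with and 57.64 without in fGTS2. In GTML_SOX9-GFP it was at 83.53 and 69.66.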

How the data were processed

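Sample groups came from the titles. For the treated-line RNA libraries the description field names the next sample rather than the titled one; titles were followed, which match the treatment field and the names of the table's columns. The members and gene lists were chosen with earlier results of these data known. For bulk RNA the authors deposited log2 CPM per gene. From the tumor values the mean batch difference had already been taken out, tumor kind kept (largest batch coefficient left 1.8e-14), so a fit without a batch term has errors that are too small. The plan had expected CPM. In the treated lines 100% of values gave whole reads. For ATAC the authors deposited CPM per region (mm9 coordinates), and for single cells UMI counts per gene and cell. Tools named in the submitters' processing notes, without roles, are Subread 1.5.2, Bowtie2 2.2, STAR 2.4.0, MACS2, edgeR, limma and Seurat 3.0, with mm9 and mm10. Strand of counting is not given in the sources used here.

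RNA was tested here with limma 3.58.1 (R 4.3.3; trend, robust) over all genes at 1 CPM or more in 3 line libraries or 6 tumors, p-values adjusted by Benjamini-Hochberg and called under 0.05; the tumor fit had a batch term, and the 4 line groups shared 1 fit. The method was tested on simulated data. Alternatives were edgeR 4.0.16 and DESeq2 1.42.0 on recovered reads, scalings, pseudocounts, filters, each replicate left out and, chosen after seeing the data, chromosomes 1 to 11 only and the batch of 6 only. Genes named are the 6 largest rises and 6 largest falls called in each line comparison, the 6 largest tumor differences, 4 regions each way per ATAC comparison, the 6 most captured in each cell library, the 2 largest changes per partner list and a fixed set of transporters. Replicate numbers did not pair the line samples. Depth was 10.861 to 24.672 M reads for line RNA, 0.827 to 7.773 M for ATAC of lines and GTS sources, 8.964 to 14.954 M for the GFP fractions, and 103.27 M and 95.81 M UMIs for fGTS2 and GTML_SOX9-GFP; tumor depth is unknown. Intervals and floors of 3 reads cover counting error only. The cell libraries share 6 barcodes; cells were used as deposited and no doublet caller was run. Some genes that the rule names are not reported here.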

Additional observations from a re-analysis of the deposited data

Results flagged for a closer look

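In the tumors, 5 of the 46 sets of values checked (23 named ABC genes, each in GTS and in GTML tumors) held 1 tumor far from the rest; chance gives about 1 in 20. Abca1 was lowest in GTS tumor 3 at 7.78 log2 CPM. Abca8a was lowest in GTML tumor 3 at -1.48. Abcb1b was highest in GTML tumor 8 at 6.4, and Abcb10 in GTML tumor 7 at 7.15. Abcd4, on a shifted chromosome, was lowest in GTML tumor 5 at 0.03.

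The DOX response differed between preGTS1 and GTML3, by limma's test of the difference itself, for 12 of the ABC genes named here. The difference was positive for Abcc4 (1.92), Abca7 (1.87), Abca9 (0.93) and Abca1 (0.69). It was negative for Abcb9 (-2.70), Abcg2 (-2.13), Abcb6 (-0.88), Abcc1 (-0.68), Abcb4 (-0.65), Abcc10 (-0.62), Abcb8 (-0.51) and Abcf2 (-0.35).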

How the results depend on the processing

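The tumor count depended most on the processing: 0 ABC genes were higher by the fit with a batch term, 6 without that term, 4 on chromosomes 1 to 11 only and 0 to 4 when single tumors were left out (4 without GTS tumor 2, 1 without GTS tumor 3). Centring the tumor libraries moved the median of all genes from -0.075 to 0.03 and gave no call among ABC genes (19 genes higher and 1 lower over all). The cause was not tested. The number of ABC genes with a higher DOX response in preGTS1 than in GTML3 was 4, and 7 on log2(CPM + 1). No result reversed, and 7 of 455 values of named genes in that comparison lost their call: Abcb6 with log2(CPM + 1) and 5 left-out libraries (adjusted p 0.0544 to 0.0778), and Abcb8 without GTML3 DMSO replicate 3 (adjusted p 0.0503). No named gene lost its call in DOX against DMSO in either line. Between the lines, 7 of 473 values under DMSO (Abcb10, Abcf2) and 5 of 473 under DOX (Abcc12, Abcc5) did.

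Replicate numbers did not pair the samples: same-numbered line samples correlated at -0.154 to 0.077 in their deviations. A replicate block left the counts at 16 higher and 10 lower in GTML3, 13 and 9 in preGTS1, 4 and 9 for the difference, 14 and 10 between the lines under DMSO and 14 and 12 under DOX.

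Promoter counts moved with the cutoff. With a minimum of 5 CPM, 2 regions in place of 6 were past 2-fold for DOX in GTML3, and 5 in place of 10 for preGTS1 relative to GTML3. At 1.5-fold, 11 in place of 4 were past it for DOX in preGTS1, 17 in place of 10 for preGTS1 relative to GTML3 and 2 in place of 0 for GFP relative to nonGFP, where leaving out 1 library gave 0 to 1. Low reads limit the ATAC folds, and UMI numbers limit Abcb1b and Abcg2 in cells.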

Other observations

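Tap1 and Tap2 are ABC genes by protein family but not by symbol, and load peptides for antigen presentation. Tap2 rose under DOX by 1.99 in GTML3 (limma, adjusted p = 1.76e-04) and by 1.70 in preGTS1 (adjusted p = 6.64e-04). Tap1 had log2 changes of 2.23 in GTML3 (adjusted p = 0.0883) and 1.18 in preGTS1 (adjusted p = 0.348), which did not pass.

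In the single-cell libraries, at least 2 oligodendrocyte markers were found in 16.14% of fGTS2 cells and 10.72% of GTML_SOX9-GFP cells, at least 2 endothelial markers in 0.3112% and 0.06459%, and at least 2 microglial markers in 0.1556% and 0%. These are shares of cells with such UMIs, free RNA included, and not shares of cell types. Their part in the levels of ABC genes was not tested.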
